A study of Mus musculus with 16 samples.

Results

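Circadian clock genes were examined in the cortex of P7 mouse pups. The 10 genes were Clock, Arntl, Per1, Per2, Per3, Cry1, Nr1d1, Nr1d2, Dbp and Ciart, and each was taken as the entry of that name among the 36930 entries of the gene table. 9 of the 10 genes had reads and were among the 21183 genes that passed the filter on low values, and Ciart had no reads in any pup. RNAseq was done on 16 pups of a C57BL6 background, 8 Avil-ChR2 and 8 ChR2-flfl. Both genotypes carried the channelrhodopsin-2 and tdTomato cassette behind a floxed stop in the Rosa26 locus. In Avil-ChR2 pups Cre recombinase under the advillin promoter removes the stop, mainly in sensory neurons outside the brain, and ChR2-flfl litter mates had no Cre. All 16 pups, controls included, had been exposed to blue light for 1 h per day from P1 to P5. The time of day at which cortices were taken is not given in the sources used here.

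The circadian clock of mammalian cells is a loop of transcription and translation. CLOCK and BMAL1, the product of Arntl, bind E-boxes and activate Per, Cry, Nr1d1, Nr1d2, Dbp and Ciart, and PER and CRY proteins then repress their own activators. The REV-ERB proteins encoded by Nr1d1 and Nr1d2 repress Arntl through ROR elements, so that in rhythmic tissues Arntl peaks at a time of day opposite to Nr1d1, Dbp and Per. Dbp belongs with Tef and Hlf to the PAR bZIP factors, which activate D-box genes. The comparisons ask whether these transcripts differed between genotypes, and whether the opposite-phase pairs showed that pups had been sampled at different times of the daily cycle.

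Windows of 250 bases before the transcription start were read from RefSeq for GRCm38.p6, and 9 of the 10 genes had at least 1 window, 13 windows in all. Per2 had none. Both strands were searched for the E-box CACGTG, the D-box TTATGNAA, the cAMP response element TGACGTCA and the ROR element. The letters were found in 4 of the 13 windows, 3 with an E-box and 2 with a D-box, and the matches did not overlap. Of 32851 windows of all genes, 6.02% held an E-box, 3.07% a D-box, 1.55% a cAMP response element and 0.332% a ROR element. The 4 windows with a match are shown 5′ to 3′ on the strand of the gene, because E-boxes and D-boxes are the elements named above, and capitals mark the matches. Per1 lies at chr11:69098699-69098948 on the plus strand, with 1 E-box and 1 D-box. Per3 lies at chr4:151044666-151044915 on the minus strand, with 2 D-boxes. Cry1 lies at chr10:85185055-85185304 on the minus strand, with 1 E-box. Ciart lies at chr3:95882229-95882478 on the minus strand, with 3 E-boxes.
Per1: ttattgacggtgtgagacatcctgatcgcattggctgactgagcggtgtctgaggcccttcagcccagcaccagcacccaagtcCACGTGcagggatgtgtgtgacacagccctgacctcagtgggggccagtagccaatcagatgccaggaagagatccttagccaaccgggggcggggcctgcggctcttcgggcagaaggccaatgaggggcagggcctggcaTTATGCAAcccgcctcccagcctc
Per3: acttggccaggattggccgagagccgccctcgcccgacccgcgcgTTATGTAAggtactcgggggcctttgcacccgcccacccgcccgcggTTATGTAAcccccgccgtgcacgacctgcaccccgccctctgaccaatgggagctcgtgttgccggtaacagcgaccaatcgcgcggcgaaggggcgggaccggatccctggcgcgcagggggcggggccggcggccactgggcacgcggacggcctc
Cry1: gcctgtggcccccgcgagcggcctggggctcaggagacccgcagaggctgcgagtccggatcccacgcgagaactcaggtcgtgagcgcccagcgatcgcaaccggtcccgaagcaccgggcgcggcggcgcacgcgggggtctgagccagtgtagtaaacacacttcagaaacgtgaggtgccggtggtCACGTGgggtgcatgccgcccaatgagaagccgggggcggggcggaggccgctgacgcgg
Ciart: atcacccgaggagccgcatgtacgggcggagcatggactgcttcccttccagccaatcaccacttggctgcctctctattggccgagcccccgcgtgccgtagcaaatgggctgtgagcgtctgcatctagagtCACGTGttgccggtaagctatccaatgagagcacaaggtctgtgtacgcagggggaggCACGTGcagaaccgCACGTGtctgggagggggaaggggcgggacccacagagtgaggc

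The depth was 30549126 reads in ChR2-flfl replicate 3 and between 47791532 and 48711134 in the other 15 pups. Avil, the advillin gene, had 39.7 ± 2.89 CPM in Avil-ChR2 and 1.07 ± 0.199 CPM in ChR2-flfl pups (SD, n = 8), and the groups did not overlap. Avil-ChR2 replicate 4, female in its label and male in a second listing of sex by the study, had 159.8 CPM of Y-linked genes, against 1.90 to 2.88 CPM in female pups. All 8 cortical neuron markers passed the filter, and they summed to 1357 to 1514 CPM. Avp, Oxt, Hcrt and Six6 of the 7 hypothalamic markers were below 0.1 CPM on average, and the list summed to 14.5 to 22.1 CPM. Of the choroid plexus list, Folr1 was below 0.1 CPM, and the list summed to 1.70 to 3.52 CPM.

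The entries of the clock genes differed in how far their reads can be assigned. Whether the strand of the reads was used in counting is not stated. Xist had no value in 7 of the 8 females of the second listing of sex. Its antisense gene Tsix had 719 to 932 CPM in those 7 pups and at most 0.66 CPM in males. Strand thus did not keep the reads of Xist and Tsix apart. Ciart, a repressor of CLOCK-BMAL1, lies on the minus strand of chr3:95878500-95882421, wholly within the plus-strand entry C920021L13Rik, which had 6.33 to 8.69 CPM. Of 719 protein-coding entries that lie wholly within another entry, 81.1% were empty in all 16 pups, against 8.84% of 19232 other protein-coding entries. A gene without reads in such an entry cannot be told apart from a gene whose reads went to the other entry, and no level is given for Ciart. Nr1d1 lies on the minus strand of chr11:98767932-98775377. The annotation places an exon of Thra, the thyroid hormone receptor alpha gene, on the plus strand at chr11:98768157-98769006, wholly within the Nr1d1 entry, and 263 of its 850 bases are shared with a Nr1d1 exon. The entry of Thra itself ends at 98765111 and had 749 ± 23.9 CPM (SD, n = 16). Reads of that Thra exon cannot be told apart from reads of Nr1d1 here. Dbp, at chr7:45705095-45710203 on the plus strand, shares 741 bases with Sphk2 on the minus strand, which had 20.8 to 29.3 CPM. Whether reads in those bases came from Dbp or from Sphk2 cannot be told here.

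Levels per kilobase of the longest annotated transcript were used to order the genes. Nr1d1 was highest, with 98.7 ± 11.8 CPM per kb (SD, n = 16), with the limit of the Thra exon given above. Clock had 12.1 ± 0.569, Nr1d2 11.98 ± 0.862 and Arntl 11.1 ± 0.677 CPM per kb, and their ranges over pups overlapped. Per1 had 9.72 ± 0.610 and Cry1 8.18 ± 0.347 CPM per kb, and each range overlapped with that of the next gene above it in the order. Dbp had 5.10 ± 0.533 CPM per kb, with the limit of the bases shared with Sphk2. Its values were outside the range of Cry1 above it and of Per3 below it. Per3 had 3.03 ± 0.214 and Per2 2.65 ± 0.213 CPM per kb, with overlapping ranges. Of the partners, Npas2, which can take the place of CLOCK, had 10.4 ± 0.925 and Cry2 had 25.0 ± 1.14 CPM per kb.

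**Figure D1:**
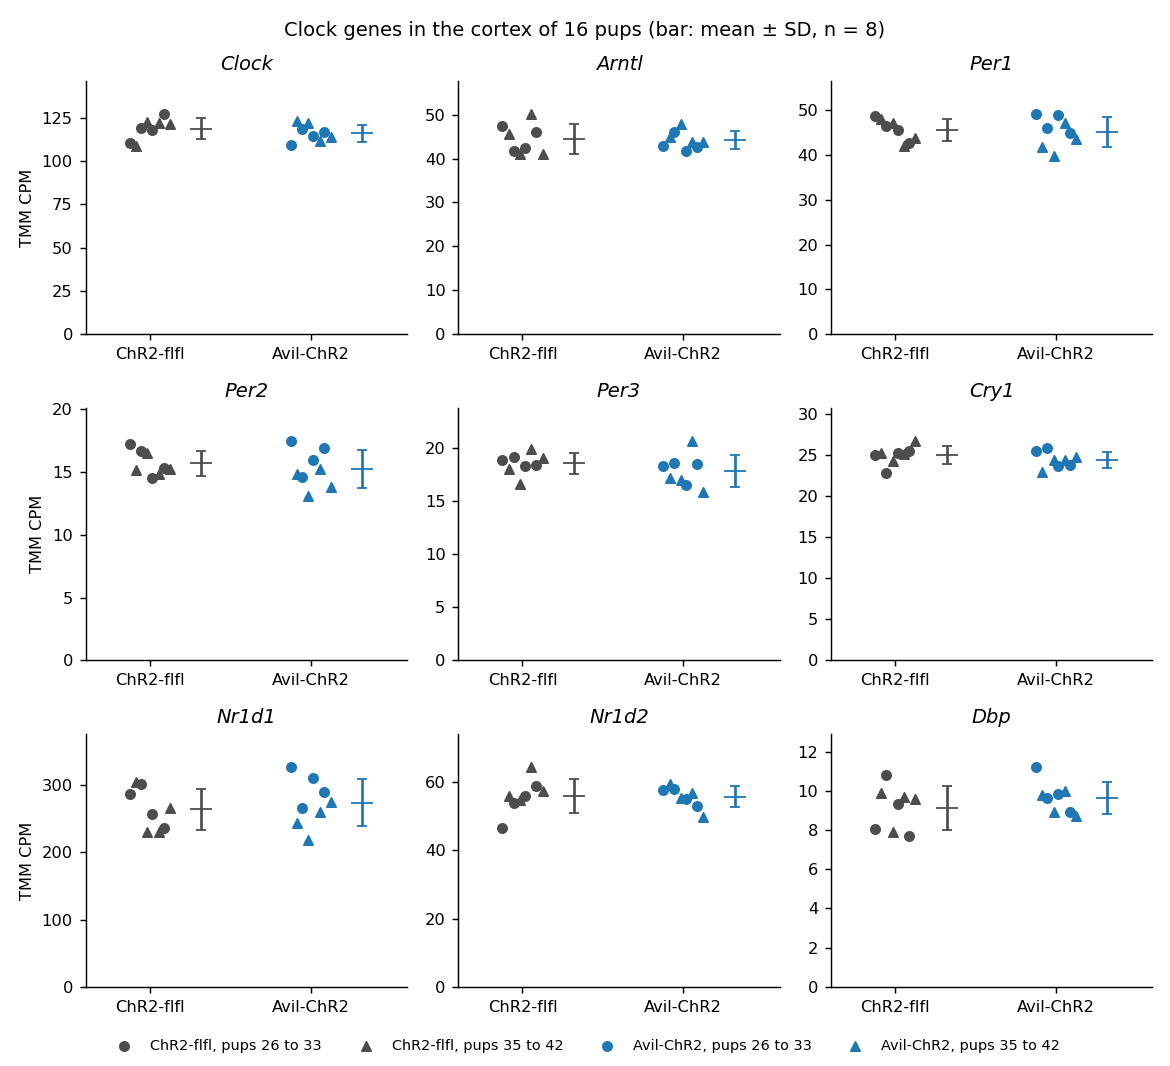
TMM CPM of the 9 clock genes with reads, 1 point per pup, by genotype (grey ChR2-flfl, blue Avil-ChR2) and by pup numbers (circles 26 to 33, triangles 35 to 42), with bars for the mean ± SD of 8 pups. The genotypes overlap in every panel, and the points of Nr1d1 run from 218 to 326 CPM whereas those of Clock run from 109 to 127 CPM.

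No clock gene passed the test between genotypes, and the values of the 8 Avil-ChR2 and 8 ChR2-flfl pups overlapped for all 9 genes with reads. In limma over 21183 genes, 2 genes passed an adjusted p of 0.05, which is 0.00944% of the genes tested, and neither was a clock gene (Avil and Mars, the latter named after its value was seen). At an unadjusted p under 0.05 limma gave 0 of the 9 clock genes, against 5.41% of all genes. The median log2 difference was -0.014 over the 9 genes and 0.0020 over all genes, and the median size was 0.035 and 0.051. In bulk tissue, fewer cells that express a gene cannot be told apart from less RNA per cell.

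Of the activators, Clock had 109 CPM in the lowest, 120 in the median and 127 in the highest ChR2-flfl pup, and 109, 116 and 123 CPM in Avil-ChR2 pups. The groups overlapped, and the log2 difference between Avil-ChR2 and ChR2-flfl was -0.030 (SE 0.034, 95% interval -0.10 to 0.040, adjusted p = 0.97, limma). Arntl had 41.1, 44.1 and 50.2 CPM in ChR2-flfl and 41.7, 43.8 and 48.0 CPM in Avil-ChR2 pups. Its difference of -0.0065 (SE 0.043, 95% interval -0.096 to 0.083) was within the spread between pups.

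The repressors of the Per and Cry families also overlapped between genotypes. Per1 had 42.1, 46.0 and 48.7 CPM in ChR2-flfl and 39.7, 45.5 and 49.2 CPM in Avil-ChR2 pups, and the log2 difference was -0.014 (SE 0.045, 95% interval -0.11 to 0.079). Per2 had 14.5, 15.3 and 17.2 CPM against 13.1, 15.0 and 17.5 CPM, with a difference of -0.045 (SE 0.057, 95% interval -0.16 to 0.073). Avil-ChR2 pups held both the lowest and the highest value of Per1 and Per2. Per3 had 16.6, 18.6 and 19.9 CPM against 15.8, 17.7 and 20.7 CPM, with a difference of -0.059 (SE 0.050, 95% interval -0.16 to 0.044, adjusted p = 0.95, limma). Cry1 had 22.9, 25.2 and 26.8 CPM against 23.0, 24.4 and 25.9 CPM, with a difference of -0.035 (SE 0.034, 95% interval -0.11 to 0.037). In both genes the mean of ChR2-flfl was exceeded by 2 of 8 Avil-ChR2 pups.

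The REV-ERB genes and Dbp varied more between pups, and none of them passed the test. Nr1d1 had 230.3, 261 and 304 CPM in ChR2-flfl and 218, 269.5 and 326 CPM in Avil-ChR2 pups. The log2 difference was 0.049 (SE 0.077, 95% interval -0.11 to 0.21), and 5 of 8 Avil-ChR2 pups exceeded the mean of ChR2-flfl. Nr1d2 had 46.6, 56.0 and 64.5 CPM against 49.9, 56.1 and 59.5 CPM, with a difference of -0.0034 (SE 0.050, 95% interval -0.11 to 0.10). Dbp, the PAR bZIP output gene, had 7.68, 9.47 and 10.8 CPM against 8.71, 9.69 and 11.2 CPM. Its difference of 0.082 (SE 0.072, 95% interval -0.068 to 0.23) was the largest of the 9, and its adjusted p was 0.95 (limma).

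Of 20 other clock genes, 19 passed the filter, and none differed between genotypes at an unadjusted or an adjusted p of 0.05 (limma). Their log2 differences ran from -0.13 to 0.087. Npas2 had a difference of -0.037 (SE 0.059), Cry2 of 0.034 (SE 0.032), Tef of 0.020 (SE 0.034), Hlf of -0.042 (SE 0.070) and Nfil3, a repressor at D-boxes, of -0.014 (SE 0.078).

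**Figure D2:**
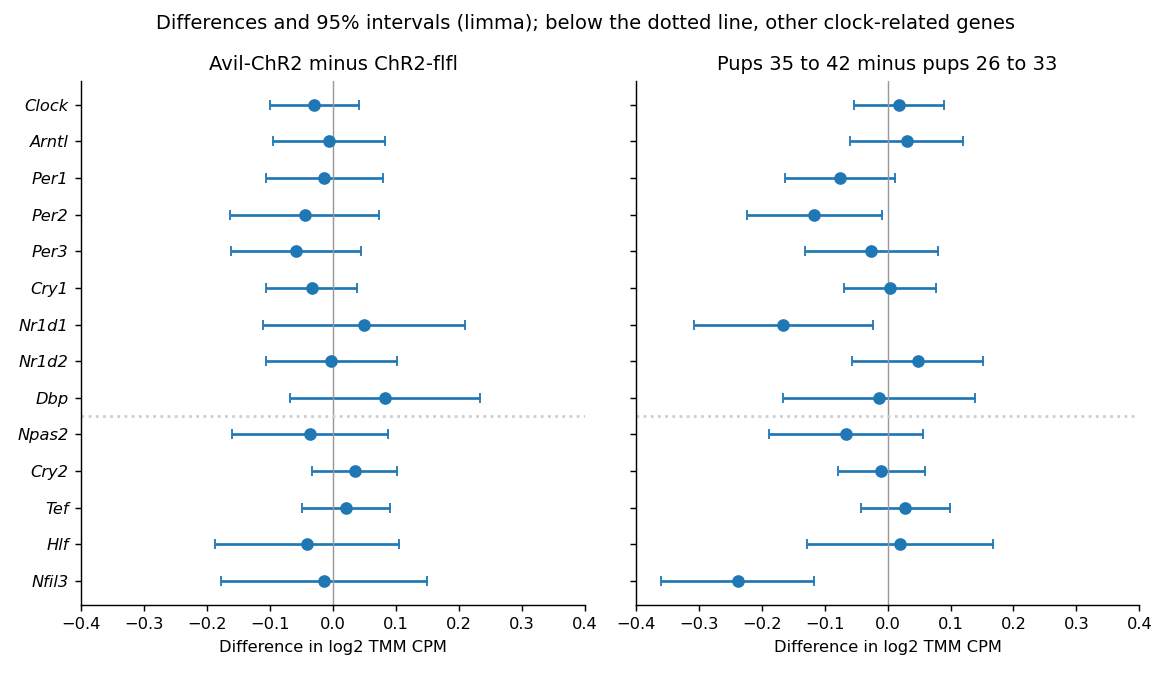
Differences in log2 TMM CPM for the 9 clock genes and 5 other clock-related genes, between genotypes (left) and between runs of pup numbers (right), with 95% intervals from limma. All intervals on the left include 0, whereas those of Per2, Nr1d1 and Nfil3 on the right lie below 0, and none of them passed the adjusted test.

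The pups carry numbers that fall into 2 runs, from 26 to 33 and from 35 to 42, and every run held 4 Avil-ChR2 and 4 ChR2-flfl pups. What a run stands for is not given in the labels. With genotype in the model, limma called 26 of 21183 genes between the runs, or 0.123%, and none of the 9 clock genes. At an unadjusted p under 0.05, 2 of the 9 clock genes were called, both lower in pups 35 to 42, against 12.5% of all genes. Nr1d1 had 237, 288 and 326 CPM in the lowest, median and highest of pups 26 to 33 and 218, 252 and 304 CPM in pups 35 to 42, and the log2 difference was -0.17 (SE 0.068, adjusted p = 0.32, limma). Per2 had 14.5, 16.3 and 17.5 CPM against 13.1, 15.0 and 16.5 CPM, with a difference of -0.12 (SE 0.051, adjusted p = 0.35, limma). The runs overlapped in both genes. Arntl, of the opposite phase, differed by 0.030 (SE 0.043) and Dbp, of the same phase as Nr1d1, by -0.014 (SE 0.073). Nr1d2, the other REV-ERB gene, differed by 0.048 (SE 0.050), in the direction opposite to Nr1d1. Per1 differed by -0.076 (SE 0.042) and Per3 by -0.026 (SE 0.050).

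Of the 19 other clock genes, 4 had an unadjusted p under 0.05 between the runs and none an adjusted one (limma). Nfil3 was at 11.9 to 13.997 CPM in pups 26 to 33 and at 9.59 to 13.1 CPM in pups 35 to 42, a difference of -0.24 (SE 0.058, adjusted p = 0.098). Csnk1d, a kinase that acts on PER proteins, differed by -0.047 (SE 0.020). Bhlhe40 and Bhlhe41, repressors at E-boxes, differed by 0.20 (SE 0.064) and 0.14 (SE 0.062), with adjusted p of 0.19 and 0.35 (limma).

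Several marker lists of cell types and regions had calls between the runs at an unadjusted p under 0.05, which 12.5% of all genes had. All 4 striatal markers had an unadjusted p under 0.05 and were lower in pups 35 to 42, with a median log2 difference of -0.47, and their sum was 37.3 to 56.0 CPM in pups 26 to 33 and 25.9 to 44.7 CPM in pups 35 to 42. So were 3 of 4 oligodendrocyte lineage genes, with sums of 228 to 282 and of 208 to 239.9 CPM, and all 4 of the 5 blood genes that passed, with sums of 257 to 465 and of 227 to 294 CPM. Of 8 cortical neuron markers, 3 were lower at this level, with log2 differences of -0.24 for Bcl11b, -0.23 for Tbr1 and -0.16 for Neurod2. Of 3 genes of the hypothalamic list that passed the filter, Vip, also a gene of cortical interneurons, differed by 0.36 and Trh by -0.47, in opposite directions. Of 4 astrocyte markers, 1 was lower (Aldh1l1, -0.097). None of these passed the adjusted test. Their part in the differences of Nr1d1, Per2 and Nfil3 was not tested. Between genotypes, 5.41% of all genes had an unadjusted p under 0.05 (limma). Of the marker lists, only Slc17a7 of the cortical neurons and Ttr of the choroid plexus were called at this level. Slc17a7 differed by 0.11 (SE 0.049, adjusted p = 0.88, limma). Ttr, at 0.219 CPM on average, differed by 1.33 (SE 0.63, adjusted p = 0.91, limma).

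Lists of genes that respond to cues which also reset clocks were compared in the same fits. At an unadjusted p under 0.05, limma called 5.41% of all genes between genotypes and 12.5% between the runs. Of 10 immediate-early genes, Fos alone was called at this level between genotypes, with a log2 difference of 0.27 (SE 0.10, adjusted p = 0.84, limma), and the median of the list was 0.13. Between the runs, Junb differed by -0.39 (SE 0.15), Ier2 by -0.28 (SE 0.11), Nr4a1 by 0.16 (SE 0.048) and Egr1 by 0.14 (SE 0.063), in both directions, and the median was 0.072. Of 7 genes of the glucocorticoid response, none had such a p between genotypes, with a median of -0.0068, and Zbtb16 did between the runs, with 0.18 (SE 0.058) and a median of the list of 0.0087. Of 7 genes of the temperature response, none did between genotypes, with a median of 0.031. Between the runs, Rbm3, a cold-induced RNA-binding protein, differed by 0.087 (SE 0.038) and Dnajb1, a heat shock protein, by -0.084 (SE 0.025), with a median of -0.021. No gene of these lists had an adjusted p under 0.05 in limma.

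Sex and the interaction of genotype with the run gave no adjusted call among the clock genes. With the sexes of the labels, limma called 9 genes (0.0425%) and 944 at an unadjusted p (4.46%), and 0 of the 9 clock genes at either. The log2 differences between males and females ran from -0.056 for Clock to 0.085 for Per3. With the study's second listing of sex, 11 genes were called (0.0519%) and 733 at an unadjusted p (3.46%), among them 1 of the 9 clock genes at the unadjusted level. This was Per3, with a difference of 0.097 (SE 0.046) at an unadjusted p of 0.049, and its adjusted p was 1.00 (limma). The interaction gave 0 genes at an adjusted p (0%) and 643 at an unadjusted p (3.04%), and 0 of the 9 clock genes at either. Within pups 26 to 33, genotype differences ran from -0.057 (Per3) to 0.15 (Dbp), and within pups 35 to 42 from -0.12 (Per2) to 0.025 (Arntl).

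The spread between pups was compared between the clock genes, several of which cycle strongly in rhythmic tissues. Nr1d1 had the widest range of the 9 genes, from 218 to 326 CPM. The highest pup exceeded the lowest 1.46-fold for Dbp, 1.38-fold for Nr1d2, 1.34-fold for Per2 and 1.31-fold for Per3. For Per1 it was 1.24-fold, for Arntl 1.22-fold, for Cry1 1.17-fold and for Clock 1.17-fold. After genotype and run, the SD of the log2 values ran from 0.063 for Cry1 to 0.16 for Nr1d1. Read counting alone would give an SD of 0.013 for Nr1d1, with 7944 to 15957 reads, and of 0.069 for Dbp, with 289 to 548 reads.

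The REV-ERB genes and Dbp stood towards the upper end of genes with similar levels. Of 1577 genes with a mean log2 of 7 to 9, 2.79% had a wider spread than Nr1d1. Of 4559 genes with a mean log2 of 3 to 5, 12.2% had a wider spread than Dbp, 40.9% than Per2, 41.5% than Per3 and 89.9% than Cry1. The median spread was 0.096 in this band and 0.070 in the band of 5 to 7. Within its band Dbp, at 3.22, lay at the low end and Cry1, at 4.63, towards the high end. Of 4641 genes with a mean log2 of 5 to 7, 13.1% had a wider spread than Nr1d2, 24.0% than Arntl, 26.5% than Per1 and 47.8% than Clock. Of the 5 partners, 4 were in the band of 5 to 7. There, 3.17% of genes were wider than Hlf, 6.92% than Npas2, 50.3% than Tef and 53.8% than Cry2. In the band of 3 to 5, 27.6% were wider than Nfil3.

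**Figure D3:**
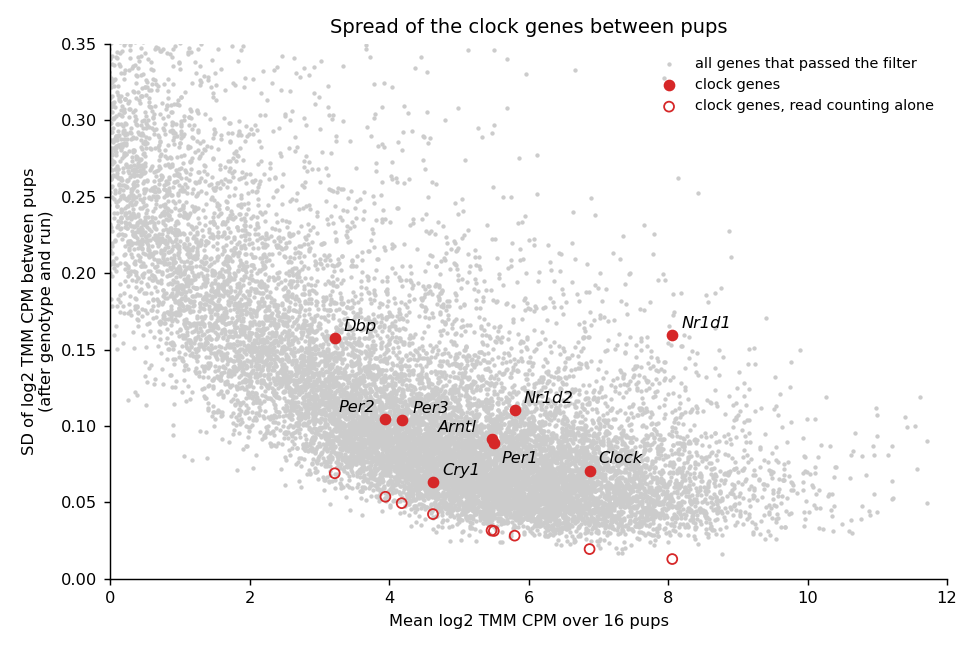
SD of log2 TMM CPM between 16 pups, after genotype and run, against the mean log2 TMM CPM, for all genes that passed the filter (grey, genes beyond the axes not shown), for the 9 clock genes (red) and for the SD that read counting alone gives them (open circles). Nr1d1 (0.16) and Dbp (0.16) lie above most genes of their level and Cry1 (0.063) below, and all 9 exceed their counting SD.

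Pairs of clock genes were compared over pups to judge the time-of-day spread. Whether these transcripts cycle in P7 cortex was not tested, and without a cycle the pairs cannot show when pups were sampled. Of 16 pairs, 14 could be computed, and the 2 with Ciart could not. Permutation tests used 100000 resamples over 16 pups, two-sided, and all permutations within the runs, and the p-values of pairs were not adjusted. Of the 6 opposite-phase pairs with Arntl, 4 had a negative r and none a p under 0.05. Arntl with Per1 had r = -0.44 (permutation p = 0.091, rho = -0.34, p = 0.20), and r = -0.070 without the 2 pups farthest from the median of Arntl. Within pups 26 to 33 this r was -0.18 (exact permutation p = 0.66), and within pups 35 to 42 it was -0.52 (exact permutation p = 0.19). Arntl with Nr1d1 had r = -0.42 (permutation p = 0.10, rho = -0.38, p = 0.14), -0.083 without those 2 pups, and -0.51 and -0.31 within the runs (exact permutation p = 0.20 and 0.46). The values without those 2 pups were close to 0 for both pairs. Arntl with Per2 had r = -0.39 (permutation p = 0.14, rho = -0.35, p = 0.18), and -0.17 without those 2 pups. Within the runs it was -0.12 and -0.54 (exact permutation p = 0.78 and 0.17). In pups 26 to 33 its rho was 0.17 (exact permutation p = 0.70), of the other sign. Arntl with Dbp had r = -0.19 (permutation p = 0.48, rho = -0.14, p = 0.60), with opposite signs in the runs (-0.68 and 0.36, exact permutation p = 0.078 and 0.38). Arntl with Nr1d2 had r = 0.21 (permutation p = 0.45) and with Per3 r = 0.22 (permutation p = 0.41), against the sign of an opposite-phase pair.

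All 5 same-phase pairs with Dbp had a positive r, and 1 of the 14 pairs had a permutation p under 0.05. This was Dbp with Nr1d1, r = 0.53 (permutation p = 0.037, rho = 0.52, p = 0.042), with 0.72 in pups 26 to 33 (exact permutation p = 0.045) and 0.41 in pups 35 to 42 (exact permutation p = 0.32). It fell to 0.36 (permutation p = 0.21) without the 2 pups farthest from the median of Dbp, and was 0.56 in the residuals after genotype and run. Dbp with Nr1d2 had r = 0.37 (permutation p = 0.16, rho = 0.29, p = 0.27), and 0.60 without those 2 pups (permutation p = 0.025). Dbp with Per1, Per2 and Per3 had r of 0.26, 0.12 and 0.31 (permutation p = 0.34, 0.67 and 0.25). In the 3 remaining pairs, Arntl was set against its partners Clock and Npas2 and against Cry1, a repressor whose transcript peaks later than those of the Per genes, and had r of 0.085 with Clock, 0.0026 with Npas2 and 0.16 with Cry1 (permutation p = 0.75, 0.99 and 0.55).

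**Figure D4:**
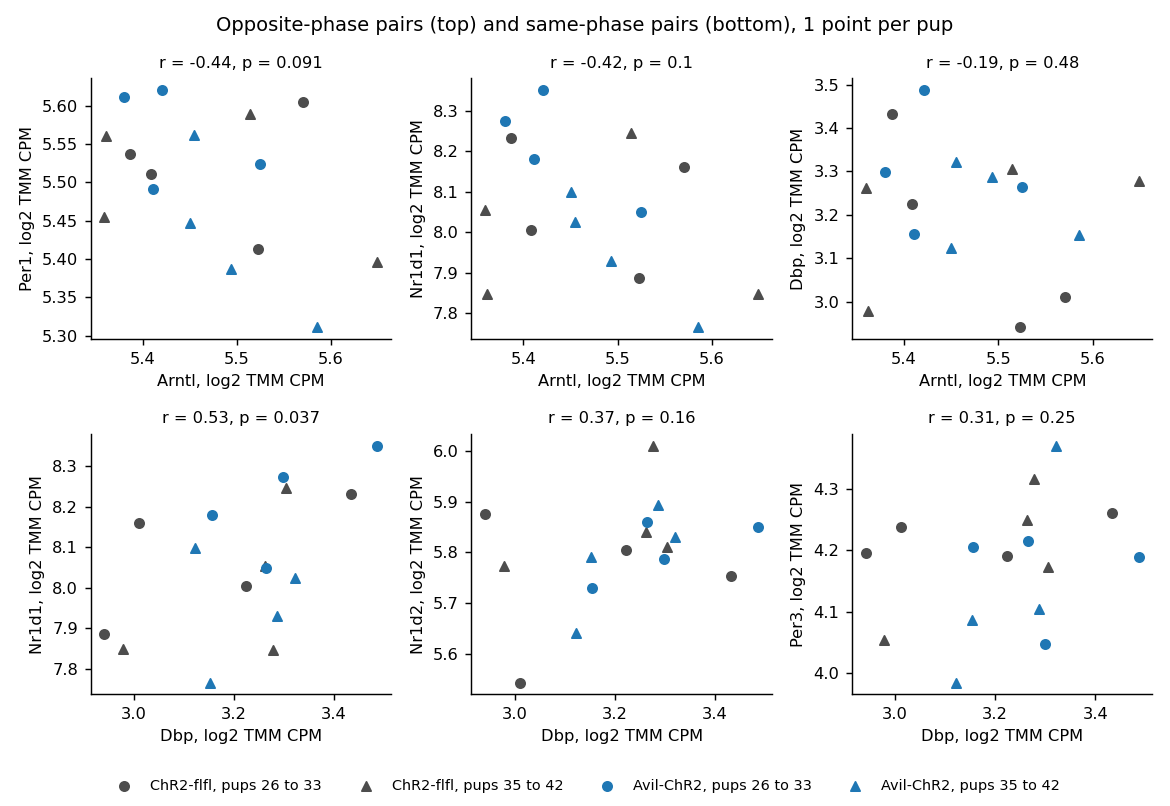
Log2 TMM CPM of pairs of clock genes, 1 point per pup, with colours for genotype and shapes for pup numbers, Arntl against Per1, Nr1d1 and Dbp (top) and Dbp against Nr1d1, Nr1d2 and Per3 (bottom), with Pearson's r and permutation p over 16 pups above each panel. The points scatter widely in all 6 panels, with r from -0.44 to 0.53.

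The same relations were fitted across all genes, with genotype and run in the model. In the slope on Arntl, limma called 0 of 21182 genes at an adjusted p (0%) and 8.7% at an unadjusted p, and 0 of 8 clock genes at either. Of the 8 log2 slopes, 4 were positive and 4 negative. They were -0.67 (SE 0.39) for Nr1d1, -0.42 (SE 0.30) for Per2 and -0.40 (SE 0.24) for Per1. For Per3 the slope was 0.29 (SE 0.30), the largest positive one, and for Nr1d2 0.21 (SE 0.30). That of Dbp ran from -0.72 to -0.10 with single pups left out. Of the other clock genes, Rora, which activates Arntl, Rorb and Arntl2 had an unadjusted p under 0.05, with slopes of 1.10 (SE 0.28), 1.16 (SE 0.50) and 0.84 (SE 0.37) and adjusted p of 0.36, 0.54 and 0.55 (limma). These genes, and Usp2 in the next fit, were named after their values were seen.

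In the slope on Dbp, limma called 0 genes at an adjusted p (0%) and 7.58% at an unadjusted p. Of 8 clock genes, Nr1d1 was called at the unadjusted level, with a slope of 0.57 (SE 0.21, adjusted p = 0.59, limma). Of 19 other clock genes 4 were called, all with a positive slope. These were the PAR bZIP genes Hlf, with 0.57 (SE 0.22), and Tef, with 0.24 (SE 0.11), and further Npas2, with 0.50 (SE 0.17), and Usp2, a clock-controlled protease gene, with 0.40 (SE 0.15), and their adjusted p ran from 0.58 to 0.65. The median slope was 0.15 over the 8 clock genes, 0.18 over the 19 others and -0.013 over all genes.

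The levels of several clock genes moved with the base composition of the transcripts. For each pup, log2 values relative to the mean of each gene were regressed on GC content and log2 length of the longest transcript over 13844 genes, the clock genes among them. The GC slope, in log2 units per 10 percentage points of GC, ran from -0.10 in ChR2-flfl replicate 7 to 0.092 in ChR2-flfl replicate 5. Its median was -0.025 in ChR2-flfl and 0.038 in Avil-ChR2 pups, and 0.047 and -0.042 in pups 26 to 33 and 35 to 42. Over 16 pups Nr1d1 (56.8% GC) had r = 0.91 with this slope (smallest permutation p that could be given, 1e-05; rho = 0.92), with 0.90 and 0.93 within the runs and 0.90 without the 2 extreme pups. Per1 (59.4% GC) had r = 0.79 (permutation p = 0.00046, rho = 0.75) and Clock (40.9% GC) r = -0.85 (permutation p = 2e-05, rho = -0.82). Nr1d2 (41.8% GC) had r = -0.56 (permutation p = 0.021, rho = -0.53), and -0.37 without the 2 extreme pups. For Per2, Per3, Cry1, Arntl and Dbp r was 0.48, -0.013, -0.20, -0.40 and 0.40. In a fit of all genes on the GC slope, with genotype and run, limma called 14.1% of 21183 genes at an adjusted p, and Nr1d1, Clock and Per1 of the 9 clock genes (adjusted p = 3.1e-05, 0.0021 and 0.0064).

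**Figure D5:**
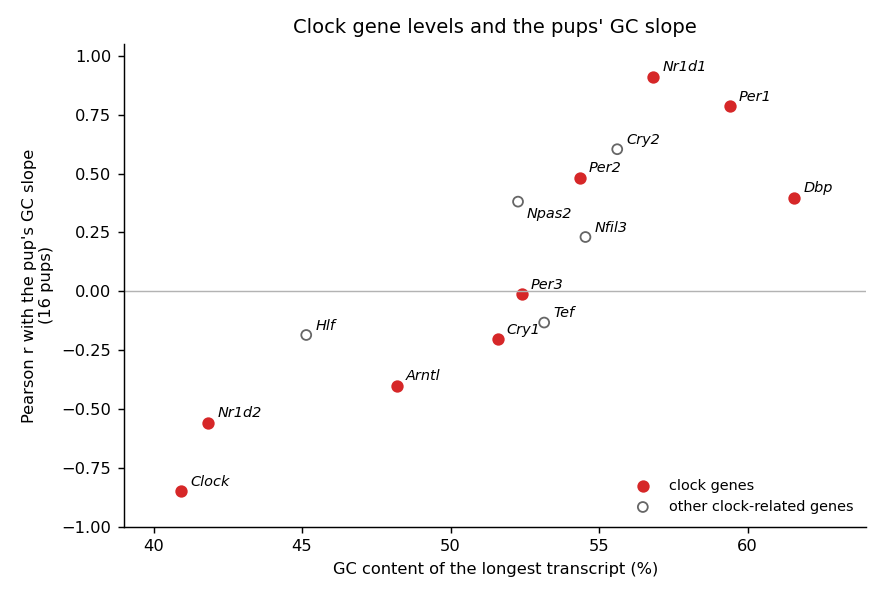
Pearson's r over 16 pups between the log2 TMM CPM of a gene and the GC slope of the pup, against the GC content of its longest transcript, for the 9 clock genes (red) and 5 other clock-related genes (open). Values run from -0.85 for Clock (40.9% GC) to 0.91 for Nr1d1 (56.8% GC), whereas Dbp with the highest GC content (61.6%) has 0.40.

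With the GC slope as a further term, a choice made after the data were seen, the residual SD of Nr1d1 went from 0.16 to 0.069, that of Per1 from 0.089 to 0.057 and that of Clock from 0.071 to 0.038. That of Dbp went from 0.158 to 0.152 and that of Arntl from 0.0916 to 0.0886. The run difference of Nr1d1 became -0.073 (SE 0.033), and its genotype difference -0.0018. Of the 6 opposite-phase pairs, Arntl had r of -0.24 with Per2, -0.21 with Per1, -0.13 with Nr1d1, -0.049 with Dbp and -0.030 with Nr1d2, all closer to 0 than without this term. With Per3 it had 0.27, farther from 0 than before. Dbp had r = 0.78 with Nr1d2 (permutation p = 0.00036) and 0.57 with Nr1d1 (permutation p = 0.020) in these residuals, and 0.0079 with Per1. Arntl had r = -0.54 with Clock (permutation p = 0.031), against 0.054 in residuals after genotype and run, so that the sign of this pair of activators turned negative. The permutations of residuals took no account of the terms fitted, so the p-values in these residuals are too small. In the fit across all genes, the slope of Nr1d2 on Dbp was 0.50 (SE 0.12), rank 19 of 21182 by p, with an adjusted p of 0.53 (limma), and 0 genes were called (0%) with 6.71% at an unadjusted p. Nr1d1 had a slope of 0.26 (SE 0.10), Per2 of 0.014 (SE 0.18) and Per1 of 0.0030 (SE 0.11), all lower than without this term, and the median of the 8 clock genes was 0.0084. Hlf had 0.74 (SE 0.21) and Tef 0.30 (SE 0.11). The part of the GC slope in the pairs was otherwise not tested.

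Genes with patterns most like the clock genes were ranked by Pearson's r of the residuals after genotype and run over 16 pups, among genes with a mean log2 of at least 0, as a description without a test. The 5 genes nearest to Per1 were Fcho1, Tsr3, Zfp219, Smg5 and Cad, with r of 0.89 to 0.91 and 56.5 to 62.1% GC. The 5 farthest were Dnal1, Phospho2, Ggps1, Sdhaf2 and Fam171b, with r of -0.87 to -0.89 and 39.6 to 44.4% GC. Clock ranked 15093 of 15136 to Per1, Nr1d1 496 and Per2 1185. Among the nearest to Dbp were Creld1, Itgb3, Kcnip2 and Pmepa1, with r of 0.83 to 0.84, and farthest were Lix1l, Fbxl20, Aste1, Rnf24 and Frem1, with r of -0.82 to -0.84. Npas2 ranked 369, Nr1d1 524, Hlf 605, Tef 629, Per3 1622 and Nr1d2 1768 of 15136 to Dbp, and Arntl ranked 10395. Nearest to Arntl were Pus10, Rad9b, Gm33228, Exosc8 and Pop1, with r of 0.85 to 0.88, and farthest were Cndp2, Nab2, Cmas, Apitd1 and Rad9a, with r of -0.81 to -0.85. Per1 ranked 13379, Nr1d1 13146, Per2 12927 and Dbp 10244, whereas Per3 ranked 3393 and Nr1d2 4519. No clock gene was among the 5 nearest or farthest of these lists.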

How the data were processed

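Cortices of 16 pups were sequenced from stranded mRNA libraries. According to the paper and the submitters' processing notes, reads of 50 bp or longer were assembled by the authors on GRCm38 (mm10), using SeqMan NGen. ArrayStar gave the gene counts, to which they applied TMM scaling, and the deposited values are CPM on a linear scale. Genes without reads in a pup are empty. The values were whole multiples of 1 read (tolerance 0.05 reads, 100% of values of up to 20000 reads), which gave the depth. It sets the counting error only.

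No pseudocount was added before the log2 transformation. Missing values and those below -5 were set to -5 (4432 values). Genes above -5 in at least 12 of 16 pups were kept, as in the paper's methods. Groups came from the sample labels. Comparisons used limma 3.58.1 in R 4.3.3 (lmFit, then eBayes with trend), and p-values were adjusted by Benjamini-Hochberg across the genes kept, and pairs used permutation tests (Python 3, numpy). Transcript length and GC content came from the longest GENCODE transcript of the same symbol, found for 82.5% of the genes. The clock genes, the lists and the rule for named genes (all clock genes and 5 partners, genes of the other lists at an unadjusted p under 0.05 in the group comparisons, and the 5 nearest and 5 farthest genes to Arntl, Dbp and Per1) were chosen with earlier results of these data known. The replicate numbers 1 to 8 are serial numbers of different animals and do not pair the pups. The fits were tested on simulated data. Alternatives are given in the closing section. 1 gene that this rule names is not reported here.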

Additional observations from a re-analysis of the deposited data

How the results depend on the processing

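No clock gene had an adjusted p under 0.05 in any of 261 alternative values of the genotype comparison, 225 of the pup run, 18 of sex, 18 of the interaction and 168 each of the slopes on Arntl and Dbp (limma; lowest adjusted p 0.71, 0.12, 0.99, 0.999, 0.38 and 0.34). The GC slope was added after the data were seen. A count model was not run, although whole reads could be recovered from the deposited values. The 2 genotype calls became 1 with median centring, with the replicate block, in pups 26 to 33 only and in pups 35 to 42 only, and 1 to 2 when single pups were left out. The correlations of same-numbered pups ran from -0.34 to 0.39. The 26 calls between the runs became 4 without the filter, 5 without the intensity trend, 16 with sex from the labels and 11 with the GC slope. When single pups were left out they ran from 7 to 123, with 123 without ChR2-flfl replicate 4, 90 without ChR2-flfl replicate 6 and 66 without Avil-ChR2 replicate 2. The slope on Arntl gave 0 to 3 calls when single pups were left out, 3 without ChR2-flfl replicate 1 and 1 without Avil-ChR2 replicate 3. Of the 14 pairs, 0 had a p under 0.05 after quantile normalization and 3 with the GC slope, against 1. The p-values with the GC slope take no account of the terms fitted and are too small.

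Directions changed as follows, all for values that did not pass the adjusted test. The genotype difference was 0.045 for Per1, 0.028 for Per2, 0.0035 for Cry1 and 0.063 for Nr1d2 in pups 26 to 33, and 0.025 for Arntl and -0.045 for Nr1d1 in pups 35 to 42. It was 0.0023 for Arntl with sex from the labels, and 0.0048 for Arntl, -0.0018 for Nr1d1 and 0.016 for Nr1d2 with the GC slope. With single pups left out it ran from -0.024 to 0.019 for Arntl, from -0.040 to 0.026 for Nr1d2 and from -0.032 to 0.012 for Per1. The run difference was -0.016 for Cry1 with sex from the labels, and -0.0024 for Cry1, -0.020 for Clock and 0.024 for Dbp with the GC slope. With single pups left out it ran from -0.015 to 0.018 for Cry1 and from -0.051 to 0.0245 for Dbp. The sex difference of Per2 was 0.032 with the second listing. With the GC slope, slopes on Arntl were -0.23 for Clock and -0.033 for Nr1d2, and the slope of Cry1 on Dbp was 0.0010. With single pups left out, slopes on Arntl ran from -0.043 to 0.19 for Clock and from -0.19 to 0.60 for Nr1d2, and slopes on Dbp from -0.094 to 0.12 for Cry1 and from -0.00079 to 0.26 for Per2. In pups 26 to 33, r was -0.28 for Arntl with Nr1d2, -0.098 for Dbp with Per3 and -0.21 for Arntl with Npas2. In pups 35 to 42 it was 0.36 for Arntl with Dbp, -0.0034 for Dbp with Per1, -0.070 for Dbp with Per2 and -0.19 for Arntl with Cry1. Without the 2 pups farthest from the median it was -0.15, -0.19 and -0.047 for Arntl with Nr1d2, Clock and Npas2. With the GC slope it was -0.030 for Arntl with Nr1d2 and -0.54 for Arntl with Clock, and after quantile normalization -0.0079 for Arntl with Npas2. The causes were not tested.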

Other observations

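Some clock genes and partners moved together over the 16 pups, given as a description without a test. The pairs named here were picked after their values were seen. Pearson's r of log2 values was 0.84 for the PAR bZIP genes Tef and Hlf, 0.76 for Nr1d2 with Hlf, 0.73 for Nr1d2 with Tef and 0.79 for Per2 with Nfil3. In residuals after genotype and run these were 0.89, 0.77, 0.73 and 0.72, and with the GC slope added 0.89, 0.82, 0.80 and 0.81. Other members did not share this. In log2 values, Nr1d1 had r of -0.088 with Tef and -0.053 with Hlf, and Per1 had -0.10 with both. With the GC slope added, Nr1d1 had 0.21 with Tef and 0.34 with Hlf. Residuals after genotype and run gave an r of 0.73 for Per1 with Nr1d1, and 0.039 with the GC slope added. In the same way Clock with Nr1d1 went from -0.80 to -0.10, and Nr1d1 with Nr1d2 from -0.29 to 0.54. Thra, with an exon inside the Nr1d1 entry, had r = 0.57 with Nr1d1, 0.54 after genotype and run, and -0.38 with the GC slope added.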
